A study of Saccharomyces cerevisiae with 26 samples.

Results

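The 57 nuclear genes described here encode the enzymes of the tricarboxylic acid (TCA) cycle, the subunits of the respiratory chain and ATP synthase, the HAP transcription factors and the RGI pair of Saccharomyces cerevisiae. They were chosen by symbol, and cytochrome c and the COX5 isoforms were left out. Each had 1 probe set, tied to 1 gene, and all 57 were among the 5445 genes tested. By role they were 12 TCA cycle enzymes, 6 genes of succinate dehydrogenase and its homologs, 4 NADH and lactate dehydrogenases, 9 subunits of the cytochrome bc1 complex, 7 of cytochrome c oxidase, 12 of ATP synthase, 5 HAP regulators and 2 RGI genes.

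The TCA cycle in the mitochondrial matrix oxidises acetyl groups and hands electrons to carriers. The respiratory chain passes those electrons to oxygen and pumps protons, and ATP synthase uses the proton gradient. Baker's yeast has no proton-pumping NADH dehydrogenase and uses single-subunit enzymes in its place. In yeast most of these genes are repressed by glucose, come on when glucose runs out, and need haem, whose synthesis needs oxygen.

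The strain was S288C, haploid and of mating type alpha (Mat-alpha), and every culture used synthetic defined medium at 32.5 °C and pH 5.5. Bead groups were cells enclosed in calcium alginate beads of 3 mm, held in a reactor to which 100 g/L glucose was fed without pause. They were sampled on days 1, 3 and 5, with 4 arrays per day, and on days 10 and 17, with 3 per day. Day 0 (2 arrays) is placed before immobilization by the sample titles and right after it by the source names. Free cells came from batch culture with 10 g/L glucose in stationary phase at 72 h (2 arrays), from a chemostat with 1 g/L glucose in the feed and a dilution rate of 0.15/h, also at 72 h (2 arrays), and from the same kind of batch culture in log phase at 12 h (2 arrays). Nitrogen kept the 3 free cultures anaerobic, while the labels do not say how oxygen was handled in the bead reactor. RNA of day 0 and of the bead days was extracted by another method than RNA of the free cells, so effects of culture and extraction cannot be told apart in comparisons across them. The labels do not state separate cultures for the arrays within a group. The p-values therefore measure only how far these arrays differ, and part of that may be technical.

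Each deposited value is a ratio of a probe set's signal to its own middle value over the 26 arrays, and log2 of it is used throughout. A log2 ratio of 0 is therefore a gene's usual signal in this series, and genes cannot be ranked by abundance. Every array was centred, so a change shared by all transcripts, in RNA per cell or in the mix of cells, cannot be seen or told apart. A gene was called when limma's adjusted p over the 5445 genes was under 0.05 and the fold change was at least 2, which is 1 on the log2 scale. Absolute levels are lost, so the labelled mating type could not be checked by level. STE3, the a-factor receptor gene that alpha cells express, differed from log phase by -2.78 in beads, -2.93 in stationary phase and -2.77 at day 0. Of 4 measured a-specific genes 1 in beads, 3 in stationary phase and 3 at day 0 were called higher than in log phase, and 3 were called higher in stationary phase than in the chemostat. These markers moved with the comparisons below, and their part in them was not tested. RNA integrity, taken as the mean log2 difference between 3′ and 5′ probe sets of 7 control genes, averaged between -0.02 and 0.22 on the bead days, -0.19 at day 0, 0.06 in stationary phase, -0.35 in the chemostat and -0.42 in log phase. It moved with several comparisons below, and its part in them was not tested.

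**Figure D1:**
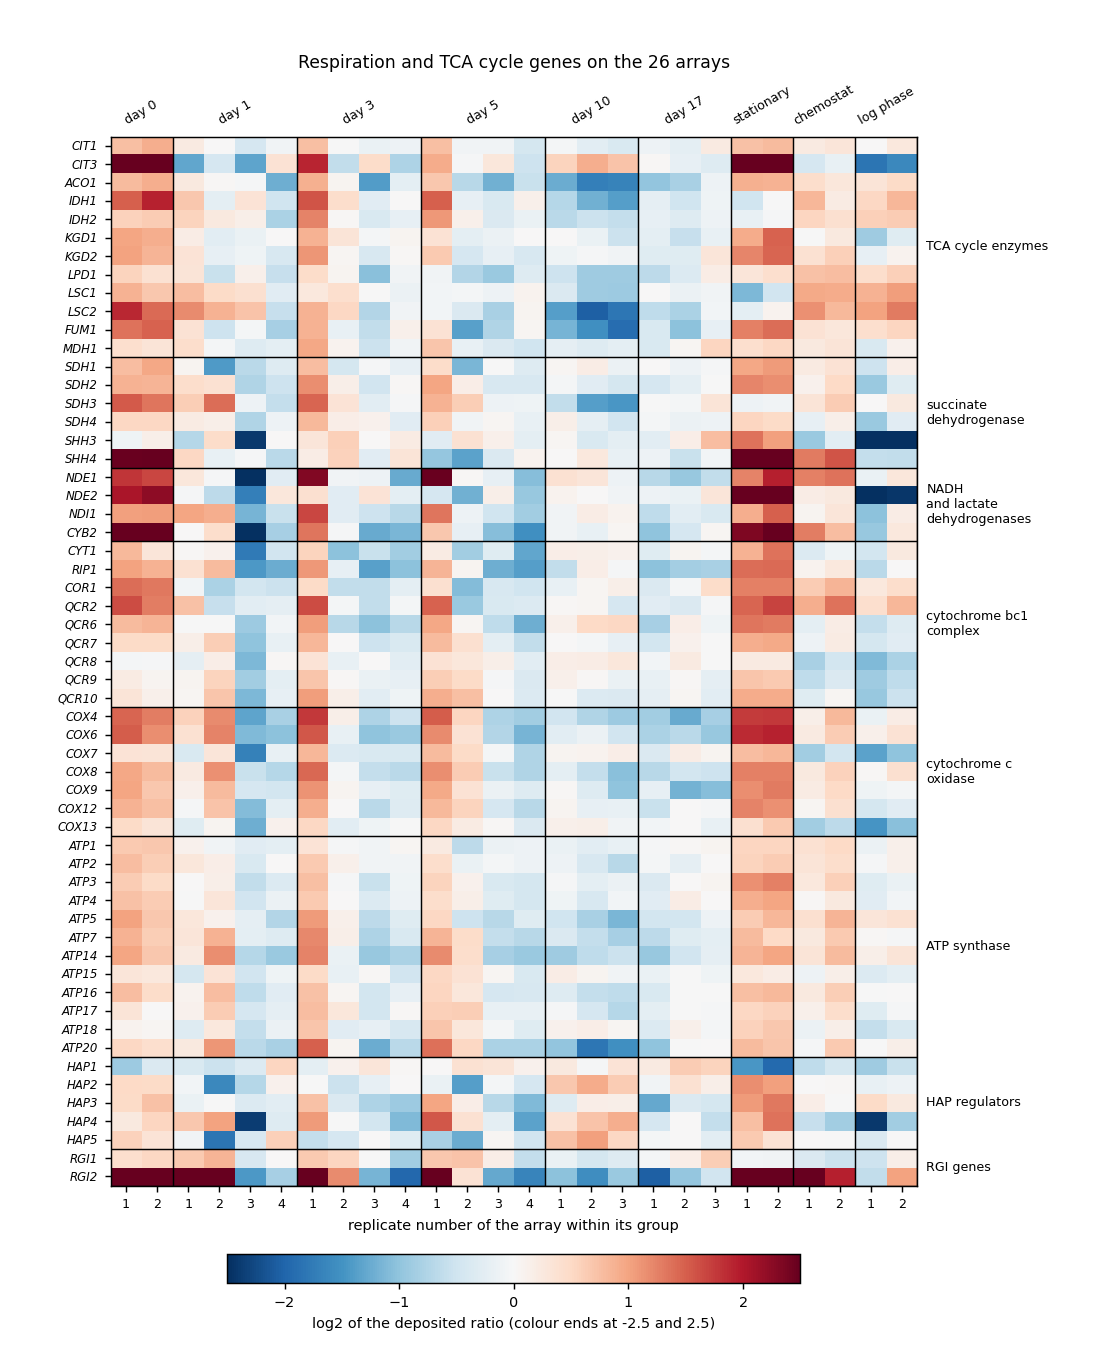
Log2 ratio of the 57 genes (rows, grouped by role) on the 26 arrays (columns, numbered within their group), with colours that end at -2.5 and 2.5. The stationary-phase and day 0 columns are red for most rows, and within days 3 and 5 the array numbered 1 is redder than those numbered 3 and 4.

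Stationary phase held the highest of the 9 group means for 36 of the 57 genes (63.2%), against 23.7% of all genes tested. Day 0 held it for another 16 (28.1% against 13.6%). Log phase had the lowest mean for 18 and day 10 for 20 of the 57 genes (31.6% and 35.1%), against 23.3% and 20.5% of all genes.

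The comparison of the batch stages asked how cells in stationary phase differed from growing cells of the same batch culture. Transcripts of succinate dehydrogenase, the cytochrome bc1 complex and cytochrome c oxidase were mostly higher in stationary phase, and the largest increases were those of SHH3, RGI2, NDE2, CIT3 and SHH4. Of the 57 genes 25 rose and 2 fell (43.9% and 3.51%), where 22.8% of all genes rose and 21.7% fell. The median change of the 57 was 1.12, against 0.04 for all genes. By role, 3 of 12 TCA enzymes, 5 of 6 succinate dehydrogenase genes, 2 of 4 NADH and lactate dehydrogenases, 5 of 9 bc1 subunits, 4 of 7 oxidase subunits and 3 of 12 ATP synthase subunits rose. In all, 7 of the 57 genes lay below 0, IDH1, IDH2 and HAP1 among them without a call. The 2 called lower were the subunits of succinyl-CoA ligase, the TCA enzyme that forms ATP directly. LSC1 fell by 1.75 ± 0.29 (SE, adjusted p = 5.48e-05) and LSC2 by 1.24 ± 0.49 (limma adjusted p = 0.0378). The LSC2 call was lost without any 1 of the 4 arrays compared. Without log phase replicate 1 the count was 13 higher and 2 lower, the 2 being LSC1 and HAP1. With quantile normalization repeated over the genes it was 5 higher and 1 lower, where 623 of the 5445 genes were called. The member median was then 0.68, against -0.02 for all genes.

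The next comparison set the mean of the 5 bead days against stationary phase. Besides enclosure, these differ in glucose supply and RNA extraction. Fed, enclosed cells had lower transcripts in nearly every role. Of the 57 genes 27 fell and 1 rose (47.4% and 1.75%), where 14.4% of all genes fell and 11.8% rose. The median change was -1.11 against -0.06 for all genes. With quantile normalization repeated it was -0.74 against -0.04, and 5 of the 57 and 562 of the 5445 genes were called. All bead arrays lay below both stationary-phase arrays for 23 members, while 17% of all genes behaved in this way. The fallen genes were 5 TCA enzymes, 4 of succinate dehydrogenase and its homologs, 2 dehydrogenases, 5 bc1 subunits, 5 oxidase subunits, 3 ATP synthase subunits, HAP2, HAP3 and RGI2. HAP1, which encodes a haem-responsive activator and carries a transposon insertion in S288C, was the 1 gene of the 57 called higher, at 1.84 ± 0.22 (adjusted p = 1.73e-06 by limma). The count was 14 lower and 1 higher without stationary phase replicate 1, 10 lower and 2 higher without stationary phase replicate 2, and 4 lower and 1 higher with repeated quantile normalization.

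Against log phase the bead mean of the 57 genes was centred near 0, with member medians of opposite sign on differently numbered arrays. Of the 57 genes 6 rose and 3 fell (10.5% and 5.26%), less than the 15.9% and 14.7% of all genes, and the median change was 0.01 against -0.01. SHH3, NDE2, CIT3, HAP4, COX7 and COX13 rose, while LSC1, LSC2 and FUM1, the last encoding fumarase, fell. Without log phase replicate 1 the count was 3 higher and 2 lower, and repeated quantile normalization left 2 higher, SHH3 and NDE2, and none lower. The FUM1 call was lost without any of 7 single arrays, both log-phase arrays among them. With bead arrays of number 1, 2, 3 or 4 only, the member medians were 0.43, 0.10, -0.12 and -0.21. Number 4 exists at days 1, 3 and 5 only, so its mean lacks days 10 and 17. A replicate block by array number gave 9 higher and 1 lower and a median of 0.25. It assumes that equal numbers in beads and free cultures share an effect, and the free cultures hold only numbers 1 and 2. The comparisons with log and stationary phase share the bead arrays, and that of stationary with log phase shares arrays with both.

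**Figure D2:**
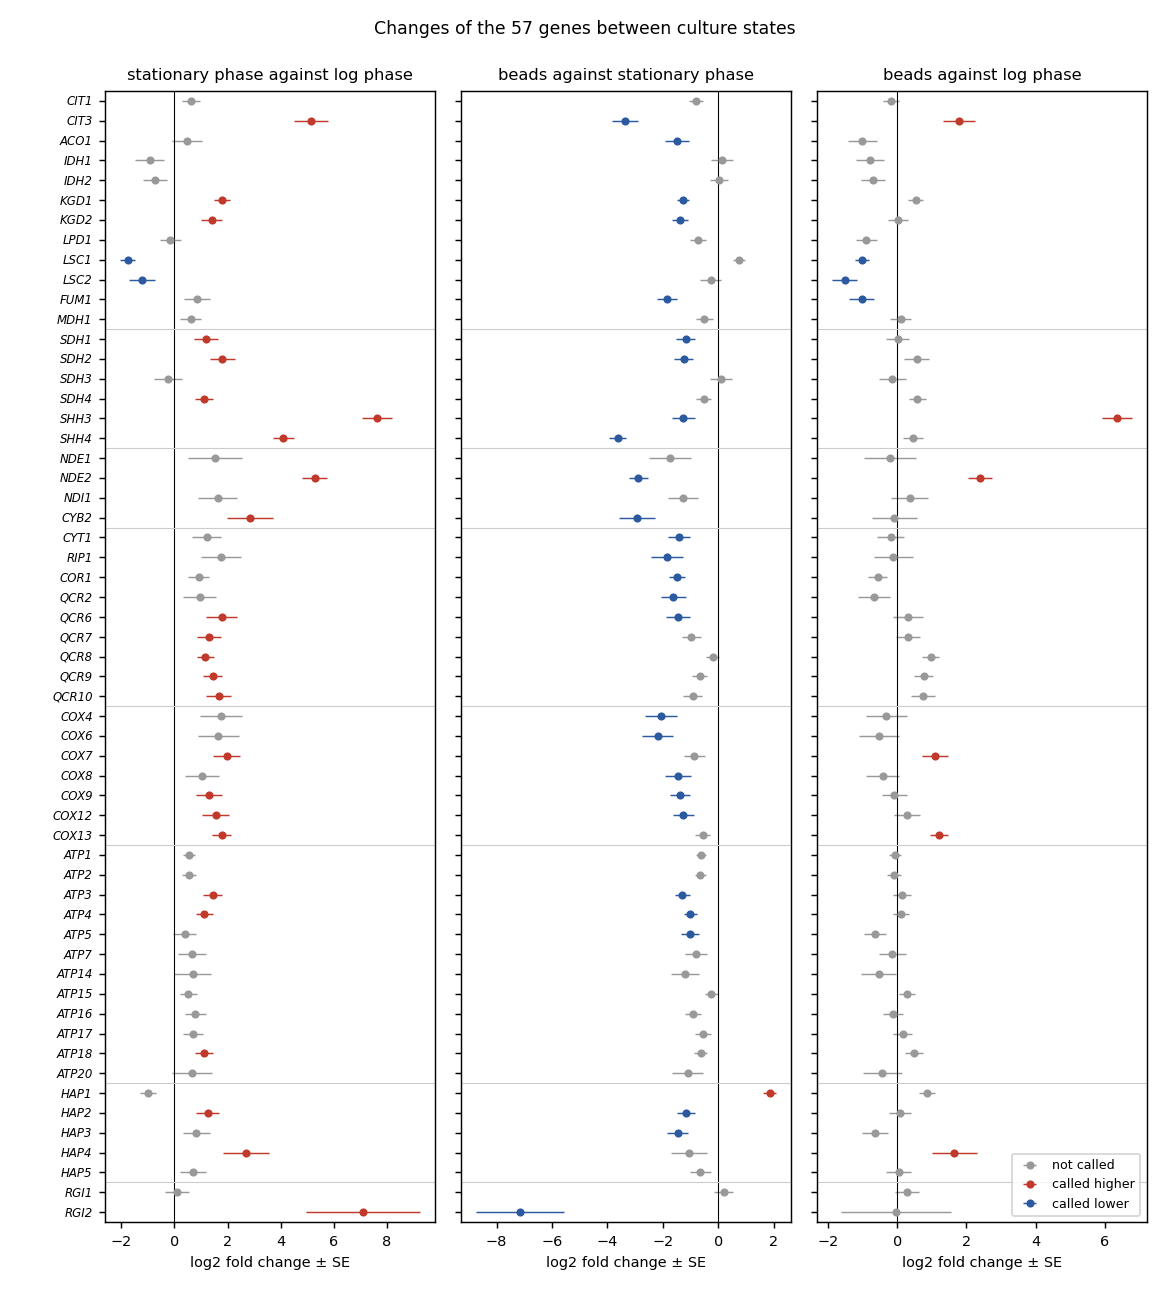
Log2 fold change with its limma SE for each of the 57 genes in 3 comparisons, coloured by the call. Called genes lie mostly right of 0 for stationary phase against log phase (25 higher) and left of 0 for beads against stationary phase (27 lower), and the panel of beads against log phase has 9 called genes, led by SHH3.

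Among the TCA enzymes, CIT3 had the widest range of group means. It encodes a mitochondrial citrate and methylcitrate synthase (CIT3, YPR001W), while CIT1 (YNR001C) encodes the main citrate synthase. The log2 ratio of CIT3 on the 18 bead arrays ran from -1.31 through a median of 0.00 up to 1.90, against 4.63 and 4.71 at day 0, 3.03 and 3.82 in stationary phase, -0.42 and -0.19 in the chemostat, and -1.83 and -1.61 in log phase. CIT1 ran from -0.44 through -0.09 up to 0.76 in beads, against 0.76 and 0.91 at day 0, 0.72 and 0.80 in stationary phase, 0.23 and 0.30 in the chemostat, and 0.01 and 0.27 in log phase. The bead arrays of CIT3 thus lay between log phase and stationary phase with no overlap, while CIT1 spanned little more than a unit over all groups. In beads CIT3 differed by -3.37 ± 0.48 from stationary phase and by 1.78 ± 0.48 from log phase (limma adjusted p = 1.08e-05 and 0.00406), and the second call was lost without log phase replicate 1. CIT1 was not called in either, at -0.80 ± 0.24 and -0.18 ± 0.24.

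MDH1, the mitochondrial malate dehydrogenase, had the narrowest range among the TCA enzymes. Its log2 ratio in beads was -0.53 at the lowest, -0.21 at the median and 0.96 at the highest, against 0.42 and 0.33 at day 0, 0.41 and 0.53 in stationary phase, 0.24 and 0.32 in the chemostat, and -0.38 and 0.10 in log phase. All these groups overlapped the beads. The subunits of the 2-oxoglutarate dehydrogenase complex, KGD1 and KGD2, rose in stationary phase by 1.80 ± 0.30 and 1.40 ± 0.38 and were lower in beads at -1.27 ± 0.23 and -1.37 ± 0.29 against stationary phase (all 4 called by limma). The NAD-dependent isocitrate dehydrogenase subunits went without a call, IDH1 at -0.92 ± 0.55 and IDH2 at -0.73 ± 0.46 in stationary phase against log phase.

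LSC1 and LSC2, the alpha and beta subunits of succinyl-CoA ligase, were lower in beads than in both growing cultures. LSC2 ratios were -2.05 at the lowest, -0.22 at the median and 1.19 at the highest in beads, against -0.25 and 0.08 in stationary phase, 1.14 and 0.81 in the chemostat, and 1.00 and 1.30 in log phase. LSC1 was at -0.92, -0.06 and 0.77 in beads, against -1.13 and -0.47 in stationary phase, 0.94 and 0.93 in the chemostat, and 0.86 and 1.04 in log phase. At day 0 LSC2 was at 1.88 and 1.41, its highest group, and LSC1 at 0.86 and 0.67. All bead arrays of LSC1 lay under log phase and the chemostat, and those of LSC2 overlapped them at the upper end. Beads against log phase gave -1.52 ± 0.36 for LSC2 and -1.02 ± 0.21 for LSC1, and beads against the chemostat gave -1.34 ± 0.36 and -1.01 ± 0.21 (limma adjusted p between 0.000592 and 0.00757). The LSC1 calls rest on a fold change close to the threshold and were lost without single arrays, among them day 1 replicate 4 in both.

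Succinate dehydrogenase links the cycle to the chain, with a flavoprotein (SDH1), an iron-sulfur subunit (SDH2) and 2 membrane subunits (SDH3 and SDH4). SHH3 (YMR118C) and SHH4 (YLR164W) are homologs of the membrane subunits. SHH3 had the widest range of its role and the largest change of all 57 genes between beads and log phase. Its log2 ratios were -2.40 at the lowest, 0.02 at the median and 0.76 at the highest in beads, against -0.11 and 0.15 at day 0, 1.36 and 1.02 in stationary phase, -0.92 and -0.27 in the chemostat, and -6.23 and -6.62 in log phase. Log phase alone was low, and the next lowest array of the series was a day 1 bead array at -2.40. The -6.62 is a ratio of 0.0102, the lowest value of any probe set in the series. Ratios keep no brightness, so how near the floor this reading lies is not known, and the differences from log phase rest on it. The difference from log phase was 6.35 ± 0.42 in beads, 7.62 ± 0.56 in stationary phase and 5.83 ± 0.56 in the chemostat (limma adjusted p = 4.06e-10, 5.53e-09 and 7.46e-07), and these calls were kept without any 1 array and with repeated quantile normalization. SDH3 showed no such gap. It was at -1.46, -0.04 and 1.46 in beads, against 1.52 and 1.33 at day 0, -0.12 and -0.09 in stationary phase, 0.32 and 0.63 in the chemostat, and 0.01 and 0.25 in log phase.

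SHH4 marked stationary phase and day 0 instead of setting log phase apart. Its log2 ratios were -1.33, -0.09 and 0.57 in beads (lowest, median and highest), against 2.48 and 2.80 at day 0, 3.77 and 3.19 in stationary phase, 1.30 and 1.57 in the chemostat, and -0.59 and -0.62 in log phase. The bead arrays enclosed log phase and lay under the other 3 groups. Beads were below stationary phase at -3.63 ± 0.29 and below the chemostat at -1.58 ± 0.29 (limma adjusted p = 6.41e-09 and 0.000454). SDH4, the narrowest of the role, was at -0.76, -0.06 and 0.81 in beads, against 0.51 and 0.52 at day 0, 0.54 and 0.47 in stationary phase, -0.20 and 0.14 in the chemostat, and -0.93 and -0.28 in log phase. It rose in stationary phase by 1.12 ± 0.34 and overlapped between beads and every other group except log phase replicate 1.

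The external NADH dehydrogenases NDE1 (YMR145C) and NDE2 (YDL085W) face the intermembrane space and oxidise cytosolic NADH, and NDI1 does this in the matrix. NDE2 had the widest range of the 4 dehydrogenases and kept 3 separate levels. It was at -1.70, -0.11 and 0.40 in beads, against 2.04 and 2.24 at day 0, 2.76 and 2.57 in stationary phase, 0.19 and 0.25 in the chemostat, and -2.80 and -2.43 in log phase. No bead array overlapped stationary or log phase. The difference was -2.88 ± 0.35 from stationary phase and 2.40 ± 0.35 from log phase (limma adjusted p = 1.45e-06 and 1.69e-05), and both were kept without any 1 array and with repeated quantile normalization. NDE1 spread far more widely in beads, at -2.98, -0.13 and 2.47, against 1.78 and 1.67 at day 0, 1.25 and 1.94 in stationary phase, 1.26 and 1.36 in the chemostat, and -0.17 and 0.29 in log phase. NDE1 was not called in beads against stationary phase (-1.75 ± 0.75) or log phase (-0.22 ± 0.75). NDI1, the narrowest, was at -1.16, -0.28 and 1.67 in beads, against 1.03 and 1.04 at day 0, 0.92 and 1.49 in stationary phase, 0.06 and 0.31 in the chemostat, and -1.02 and 0.18 in log phase. Its bead arrays spanned those of all other groups. CYB2, the lactate dehydrogenase that feeds cytochrome c, rose in stationary phase by 2.86 ± 0.86 and fell in beads against stationary phase by 2.94 ± 0.64.

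The cytochrome bc1 complex carries electrons from ubiquinol to cytochrome c. All 9 subunits were above log phase in stationary phase, by 0.91 to 1.78, of which the 5 small subunits QCR6, QCR7, QCR8, QCR9 and QCR10 were called. The 5 called lower in beads against stationary phase were CYT1, RIP1, COR1, QCR2 and QCR6, so QCR6 was in both lists. Whether called and uncalled subunits differed from each other was not tested. RIP1, the Rieske iron-sulfur protein, had the widest range of the complex. It was at -1.43, -0.71 and 1.09 in beads, against 1.01 and 0.86 at day 0, 1.40 and 1.41 in stationary phase, 0.09 and 0.26 in the chemostat, and -0.68 and 0.01 in log phase. Bead arrays stayed under stationary phase and spanned log phase, and the difference from stationary phase was -1.85 ± 0.56 (limma adjusted p = 0.011, lost without either stationary-phase array). QCR8, the narrowest, was at -1.12, 0.09 and 0.36 in beads, against -0.06 and -0.03 at day 0, 0.22 and 0.23 in stationary phase, -0.82 and -0.46 in the chemostat, and -1.10 and -0.79 in log phase. It was the steadiest of the complex in beads, where its median lay above both the chemostat and log phase.

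Cytochrome c oxidase hands the electrons to oxygen. Its 7 listed subunits were all above log phase in stationary phase, by 1.04 to 1.97, and 4 were called. COX4, with the widest range, was at -1.31, -0.76 and 1.77 in beads, against 1.45 and 1.28 at day 0, 1.75 and 1.78 in stationary phase, 0.14 and 0.82 in the chemostat, and -0.17 and 0.19 in log phase. Most bead arrays lay under log phase, while 1 array at day 3 reached the level of stationary phase. COX4 and COX6 fell in beads against stationary phase by 2.06 ± 0.58 and 2.19 ± 0.57 (limma adjusted p = 0.00698 and 0.00386), and both calls were lost without either stationary-phase array. COX12, the narrowest, was at -1.09, -0.10 and 0.91 in beads, against 0.86 and 0.74 at day 0, 1.24 and 1.14 in stationary phase, 0.06 and 0.39 in the chemostat, and -0.45 and -0.29 in log phase. COX7 and COX13 differed from the others in being called higher in beads than in log phase, at 1.09 ± 0.38 and 1.21 ± 0.26 (limma adjusted p = 0.0209 and 0.000735).

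For ATP synthase calls were few. In stationary phase against log phase its 12 subunits lay between 0.39 and 1.44, and ATP3, ATP4 and ATP18 were called. The main catalytic subunits ATP1 and ATP2 were at 0.55 ± 0.23 and 0.54 ± 0.27, short of the fold threshold. In beads against stationary phase the 12 lay between -1.30 and -0.26, with ATP3, ATP4 and ATP5 called. No subunit was called in beads against log phase, where 17 of the 57 genes, of any role, had an unadjusted p under 0.05. ATP20, a subunit of the membrane part, had the widest range and was at -1.81, -0.67 and 1.49 in beads, against 0.52 and 0.41 at day 0, 0.79 and 0.69 in stationary phase, -0.03 and 0.66 in the chemostat, and 0.00 and 0.14 in log phase. ATP15, the epsilon subunit, had the narrowest and was at -0.48, -0.05 and 0.51 in beads, against 0.29 and 0.26 at day 0, 0.27 and 0.19 in stationary phase, -0.12 and 0.15 in the chemostat, and -0.35 and -0.25 in log phase. Both overlapped every other group in beads.

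The HAP complex binds promoters of respiratory genes through HAP2, HAP3 and HAP5 and activates them through HAP4, whose transcript is repressed by glucose. HAP4 was at -2.38, 0.00 and 1.56 in beads, against 0.24 and 0.54 at day 0, 0.74 and 1.37 in stationary phase, -0.57 and -0.88 in the chemostat, and -2.40 and -0.87 in log phase. The log-phase pair lay far apart, and its lower array was about as low as the lowest bead array. HAP4 rose against log phase by 2.69 ± 0.88 in stationary phase and 1.64 ± 0.65 in beads (limma adjusted p = 0.0139 and 0.0422), and neither call was kept without log phase replicate 1. HAP5, the narrowest, was at -1.82, -0.18 and 1.02 in beads, against 0.58 and 0.34 at day 0, 0.65 and 0.35 in stationary phase, 0.01 and -0.02 in the chemostat, and -0.36 and 0.00 in log phase. HAP2 and HAP3 fell in beads against stationary phase by 1.16 ± 0.31 and 1.47 ± 0.38, opposite to HAP1. HAP1 was at -0.54, 0.17 and 0.63 in beads, against -0.91 and -0.35 at day 0, -1.45 and -1.94 in stationary phase, -0.64 and -0.45 in the chemostat, and -0.88 and -0.55 in log phase.

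RGI1 (YER067W) and RGI2 (YIL057C) are needed for energy metabolism during respiratory growth. RGI2 showed the widest swings of all. It was at -2.05, -0.94 and 5.60 in beads, against 6.81 and 6.86 at day 0, 7.31 and 7.28 in stationary phase, 2.58 and 1.95 in the chemostat, and -0.62 and 1.01 in log phase. Beads were below stationary phase at -7.14 ± 1.59 (limma adjusted p = 0.00113, lost with repeated quantile normalization), and stationary phase was above log phase at 7.10 ± 2.13 (adjusted p = 0.00868, lost without log phase replicate 1). RGI1 was called in none of the comparisons between cultures, at -0.86, 0.09 and 0.85 in beads, against 0.43 and 0.52 at day 0, -0.07 and -0.09 in stationary phase, -0.36 and -0.53 in the chemostat, and -0.52 and 0.15 in log phase.

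**Figure D3:**
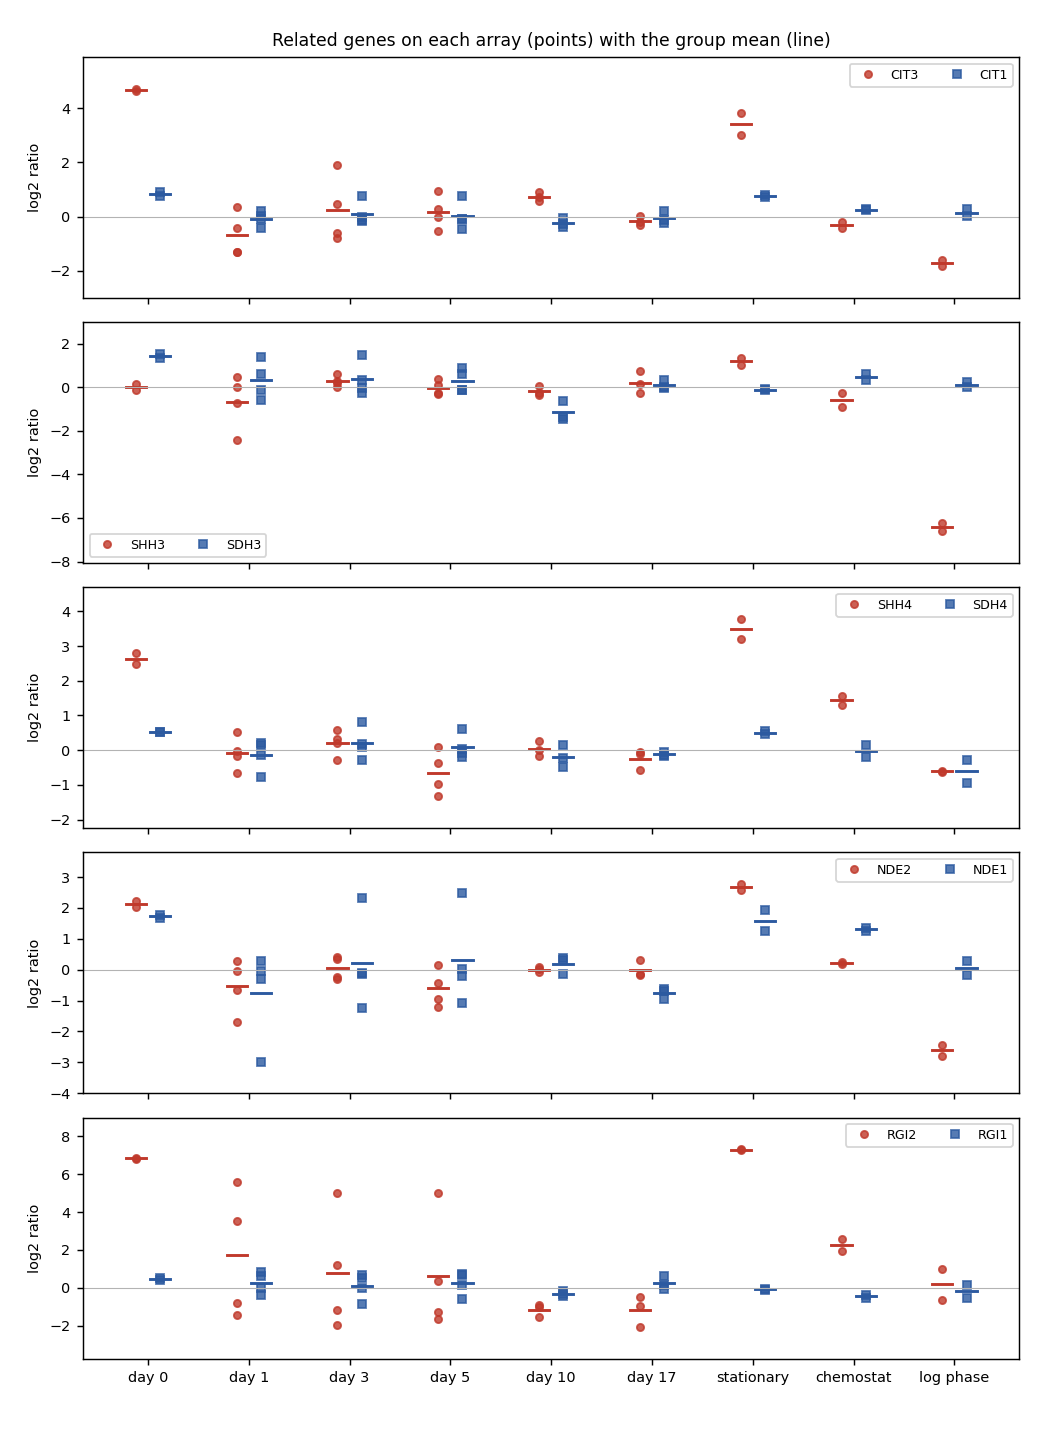
Log2 ratio of 5 pairs of related genes on every array by group, with lines for group means. CIT3, SHH4 and RGI2 are high at day 0 and in stationary phase, SHH3 is low in log phase near -6, and CIT1, SDH4 and RGI1 stay within 1 of 0.

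Whether the members of a pair differed in their response was tested on their difference within each array, for 18 bead arrays against 2 arrays of a free culture, with exact permutation tests (two-sided, 15 tests, smallest possible p = 0.0105). A total of 7 differences passed after adjustment. SHH3 minus SDH3 was 6.42 higher in beads than in log phase and CIT3 minus CIT1 was 1.93 higher (adjusted p = 0.0263 each, exact). Against stationary phase the difference in beads was -7.20 for RGI2 minus RGI1, -3.12 for SHH4 minus SDH4, -2.60 for CIT3 minus CIT1 (adjusted p = 0.0263 each, exact) and -1.43 for SHH3 minus SDH3 (adjusted p = 0.0451, exact). SHH4 minus SDH4 was also lower in beads than in the chemostat, at -1.60 (adjusted p = 0.0263, exact). NDE2 minus NDE1 did not pass, at 2.58 against log phase (adjusted p = 0.0592, exact) and -1.17 against stationary phase (adjusted p = 0.123, exact). Pairs were chosen with their values known. With 1 array of a free culture left out, the test cannot pass for that culture, and 4 differences passed without a log-phase array and 0 without a stationary-phase array. Differences against the other cultures do not use the array left out. Those that no longer passed were lost through the adjustment over all 15 tests, with their values unchanged.

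The chemostat, a culture in steady growth, had a member median of 0.43 above log phase, against 0.00 for all genes. Against log phase 3 of the 57 genes rose and 0 fell (5.26% against 1.76% of all genes). They were SHH3 at 5.83 ± 0.56, NDE2 at 2.83 ± 0.46 and SHH4 at 2.04 ± 0.39 (limma adjusted p = 7.46e-07, 0.000824 and 0.00458). Stationary phase was above the chemostat for 9 of the 57 and below it for 2 (15.8% and 3.51%, against 17.4% of all genes each way), which is near the background for higher calls. The 9 were CIT3, KGD1, SHH3, SHH4, NDE2, QCR9, COX7, COX13 and HAP2, and the 2 were LSC1 and HAP1. Leaving out chemostat replicate 1 left 3 higher and 2 lower, leaving out stationary phase replicate 1 or 2 left 5 higher with 2 or 1 lower, and repeated quantile normalization left LSC1 alone. Beads were below the chemostat for 4 of the 57, LPD1, LSC1, LSC2 and SHH4, and above it for 0 (7.02%, against 9.94% of all genes lower and 9.55% higher), and 15 had an unadjusted p under 0.05 by limma. That count was 1 and 2 without chemostat replicate 1 and 2, 8 without day 3 replicate 1 and 7 without day 5 replicate 1.

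Day 0 cells, like those in stationary phase, were compared with log phase, where 12 of the 57 rose and 0 fell (21.1%, against 18.6% of all genes higher and 17.8% lower). RGI2 at 6.64 ± 2.13, SHH3 at 6.45 ± 0.56, CIT3 at 6.39 ± 0.64 and NDE2 at 4.75 ± 0.46 led, and the share of higher calls was near the background. Without log phase replicate 1 the count was 6, and without day 0 replicate 2 it was 7. In the first day of the beads the direction turned. At day 1 against day 0, 14 of the 57 fell and 0 rose (24.6%, against 10.3% of all genes lower and 9.97% higher), with a median of -0.89 against -0.03 for all genes. CIT3 was at -5.33 ± 0.55, RGI2 at -5.12 ± 1.85, CYB2 at -3.51 ± 0.75, SHH4 at -2.73 ± 0.34 and NDE2 at -2.66 ± 0.40, and the others were IDH1, KGD1, KGD2, FUM1, SDH1, NDE1, COR1, QCR2 and HAP2. That count was 8 and 6 without day 0 replicate 1 and 2 and 9 without day 1 replicate 3. With a replicate block by array number 10 were called, 9 of them among the 14, with a median of -0.60, and KGD1, KGD2, NDE1, QCR2 and RGI2 lost their calls. The 7 oxidase subunits lay between -1.46 and -0.74 (median -0.86) and the 12 of ATP synthase between -0.98 and -0.14 (median -0.65), with no calls.

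From day 1 on, few members were called, though the median gap between highest and lowest bead-day mean was 0.66, against 0.73 for all genes. At day 17 against day 1 limma called 0 of the 57 (0.257% of all genes rose and 0.0367% fell), and 4 had an unadjusted p under 0.05, namely LSC2 at -1.04 ± 0.37, COX9 at -0.82 ± 0.37, HAP1 at 0.66 ± 0.23 and HAP2 at 0.72 ± 0.32. With array weights the count was 8, where 759 of the 5445 genes were called. Among the 5 bead days limma's F-test called 5 genes, LSC1, LSC2, FUM1, SDH3 and HAP2 (8.77%, against 20.9% of all genes). The 4 enzymes had their lowest bead mean at day 10 and HAP2 its highest. LSC2 averaged 0.55 ± 0.78 at day 1 (SD, n = 4), 0.14 ± 0.71 at day 3 (n = 4), -0.29 ± 0.39 at day 5 (n = 4), -1.74 ± 0.34 at day 10 (n = 3) and -0.50 ± 0.39 at day 17 (n = 3). HAP2 averaged -0.57 ± 0.78, -0.19 ± 0.26, -0.51 ± 0.60, 0.75 ± 0.16 and 0.15 ± 0.24 on the same days. FUM1 averaged -1.53 ± 0.37 and SDH3 -1.15 ± 0.47 at day 10 (SD, n = 3 each), and the day 10 means of ACO1 (-1.54), ATP20 (-1.44) and IDH1 (-1.10) were also their lowest of all groups, without a call. The count was 1 without day 10 replicate 2 or 3, 3 without day 1 replicate 1, 8 without day 1 replicate 4, and 9 with a replicate block by array number.

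**Figure D4:**
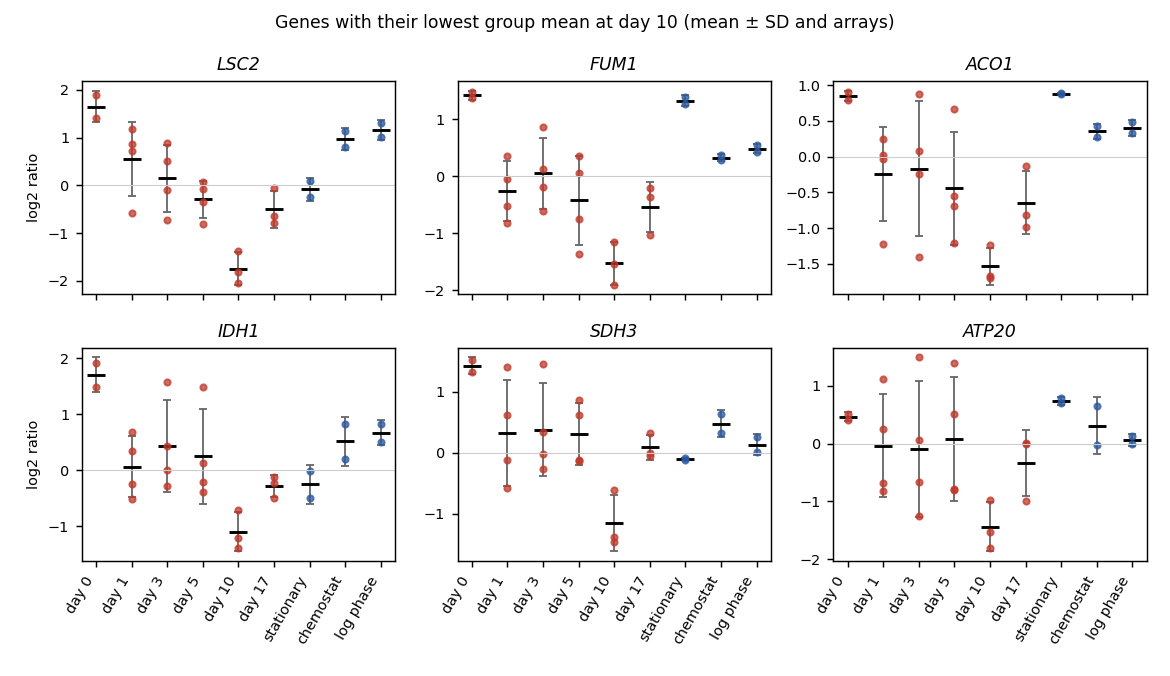
Log2 ratio of 6 genes whose lowest group mean was at day 10, by group, with points for arrays and mean ± SD. The 3 arrays of LSC2 at day 10 lie between -2.05 and -1.38, below every other array of the series, and at day 17 LSC2 averages -0.50.

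Within the bead groups the members differed between arrays of the same day, and they did so together. The median SD of the 57 genes was 0.593, 0.644 and 0.606 at days 1, 3 and 5, against 0.482, 0.337 and 0.390 for all genes. At days 10 and 17 it was 0.189 and 0.217, against 0.244 and 0.254. The titles number the arrays of each day. At days 3 and 5 the median log2 ratio of the 57 genes was 0.87 and 0.67 on arrays numbered 1, 0.01 and 0.10 on those numbered 2, -0.40 and -0.30 on those numbered 3, and -0.25 and -0.42 on those numbered 4. At day 1 it was 0.20, 0.25, -0.60 and -0.28, and at days 10 and 17 it stayed between -0.30 and -0.04.

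A limma F-test of the replicate number over days 1, 3 and 5, with the day in the model, was added after these values were seen. It called 18 of the 57 genes (31.6%), against 7.93% of all genes. Averaged over the 3 days, number 1 was the highest of the 4 for 52 members (91.2%, against 22.8% of all genes), and the median gap between highest and lowest number was 1.13, against 0.62. RGI2 had the widest gap, at 5.99. It stood at 3.53, 4.99 and 5.02 on the number 1 arrays of days 1, 3 and 5, and at -1.44, -1.16 and -1.29 on those numbered 3. CYB2 (2.40), COX4 (2.23), RIP1 (2.12), COX6 (2.07), NDI1 (2.06) and ATP20 (1.95) followed among those called (limma adjusted p between 0.00932 and 0.0314). NDE1 at 2.79 and HAP4 at 2.12 missed the threshold (adjusted p = 0.067 and 0.0692). SHH4 (0.23), NDE2 (0.70), CIT3 (0.86) and SHH3 (1.24) were not called, though the SHH3 gap was above the member median. These genes separated culture states in the comparisons above. So did RGI2, CYB2, COX4, COX6 and RIP1, called here and lower in beads than in stationary phase. The count rests on days 3 and 5, since it was 41 without day 1 and 0 without either of the other days. It was 1 without replicate 1 of day 3 or of day 5, 2 without day 5 replicate 2, 3 without day 3 replicate 3, 5 without day 3 replicate 4, 7 without day 5 replicate 3 or 4, 9 without day 1 replicate 2 and 28 without day 1 replicate 4.

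The array carries 3 control probe sets along the RIP1 transcript, which followed the gene's own probe set. On day 1 replicate 3 they read -1.13 (3′ end), -1.42 (middle) and -2.13 (5′ end), with the RIP1 probe set at -1.43, and on day 3 replicate 1 they read 1.32, 1.51 and 1.38, with 1.09. The 3′ against 5′ measure of RNA integrity moved with the replicate number. It lay between -0.28 and 0.13 on the 6 arrays numbered 1 and 2 at days 1, 3 and 5, and between -0.02 and 0.41 on the 6 numbered 3 and 4. Its part in the pattern was not tested. With bead arrays of 1 number only, the member median against stationary phase was -0.67, -0.95, -1.33 and -1.24 for numbers 1, 2, 3 and 4. Against the chemostat it was -0.02, -0.34, -0.63 and -0.64. Number 4 covers days 1, 3 and 5 only.

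**Figure D5:**
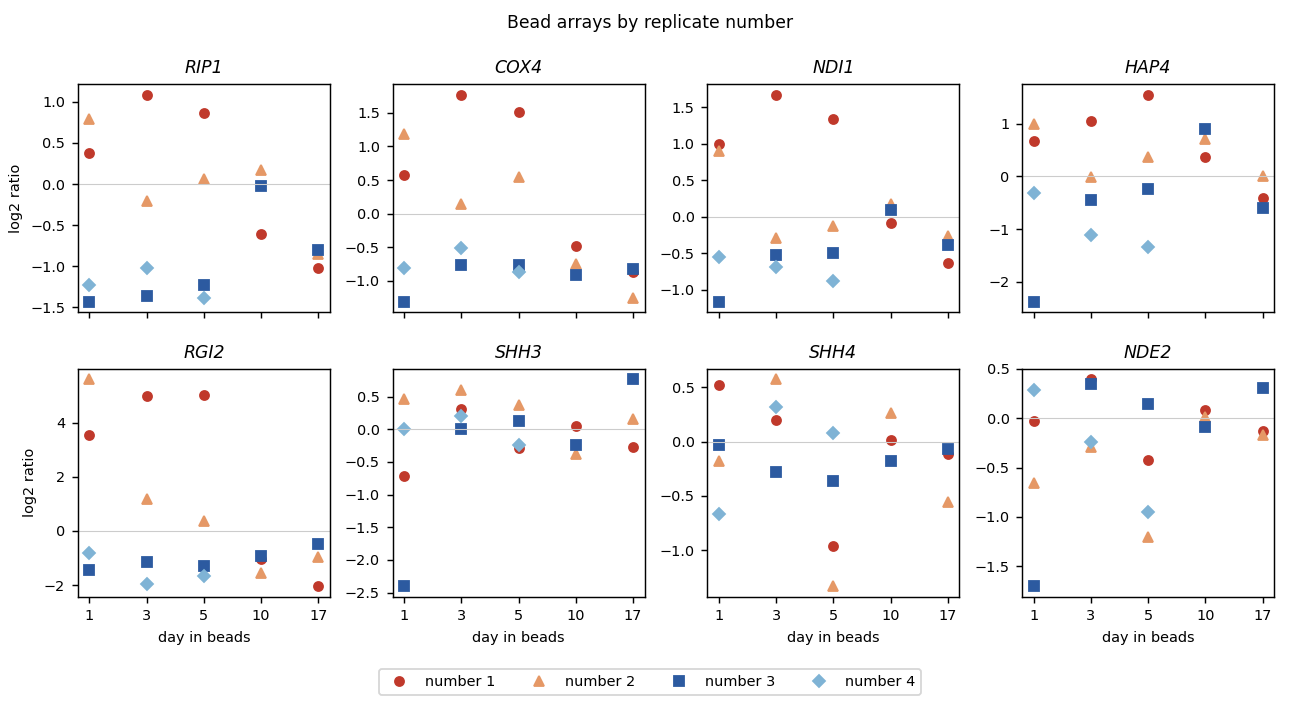
Log2 ratio of 8 genes on the bead arrays by day (x axis) and replicate number (marker). RIP1, COX4, NDI1, HAP4 and RGI2 are highest on number 1 at days 3 and 5, while SHH3, SHH4 and NDE2 keep no such order.

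Genes around the pathway were counted in the same fits. Each count is read beside the share of all genes called, which was 22.8% higher and 21.7% lower in stationary phase against log phase, 11.8% and 14.4% in beads against stationary phase, and 15.9% and 14.7% in beads against log phase. Coenzyme Q carries electrons to the bc1 complex. Of 10 measured genes of its synthesis 6 fell and 0 rose in stationary phase against log phase, with COQ2 at -2.03 ± 0.41 and COQ6 at -1.84 ± 0.30, and 4 rose and 0 fell in beads against stationary phase. Of 50 assembly factors of the complexes 11 rose and 3 fell in stationary phase, led by COX19 at 2.63 ± 0.47, and 2 rose and 7 fell in beads against stationary phase. INH1, which inhibits ATP synthase when the gradient collapses, rose in stationary phase at 1.75 ± 0.50 and fell in beads against stationary phase by 1.59 ± 0.37.

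Of 7 measured isoenzymes of the cycle in other compartments or with NADP, 4 rose and 0 fell in stationary phase, led by the peroxisomal IDP3 at 5.52 ± 0.58 and the cytosolic IDP2 at 3.65 ± 0.68. In beads against log phase IDP3 was at 3.13 ± 0.43 and the cytosolic malate dehydrogenase MDH2 at 1.83 ± 0.31, both called. Of 8 genes of pyruvate dehydrogenase, which feeds the cycle, and its regulators 1 rose and 0 fell in stationary phase, and in beads against log phase 1 rose and 2 fell, the 2 being LAT1 at -1.35 ± 0.29 and PTC5 at -1.27 ± 0.25. Among 16 carriers and other electron donors the succinate-fumarate carrier SFC1 stood out at 6.38 ± 1.11 in stationary phase and -4.59 ± 0.83 in beads against stationary phase, while 4 rose and 5 fell in stationary phase. Of 7 genes that maintain or transcribe mitochondrial DNA, RIM1 and ABF2 fell in stationary phase and in beads, by 1.65 ± 0.53 and 1.64 ± 0.41 and by 1.77 ± 0.40 and 1.32 ± 0.31 against log phase. Of 14 carbon regulators 7 rose and 1 fell in stationary phase, with the activators CAT8 at 4.47 ± 0.84 and SIP4 at 4.04 ± 0.56, and in beads against stationary phase 1 rose and 7 fell, with CAT8 at -2.64 ± 0.63 and the repressor MIG2 at 2.76 ± 0.74. Subunits encoded by mitochondrial DNA were not analysed here.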

How the data were processed

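RNA of 26 samples was measured on Affymetrix yeast arrays. The deposited values are linear ratios, made by the authors after RMA per the submitters' processing notes (no version is given in the sources used here). They run from 0.0102 (SHH3 on log phase replicate 2) to 158.7 (RGI2 on stationary phase replicate 1). The median of a probe set across the series was 0.9905 to 1.047. The precision is limited by the number of arrays.

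Here log2 was taken, and 5498 of 10928 probe sets tied to 1 S. cerevisiae gene gave 5449 genes. The probe set with the highest mean was used for 47 genes, none of them a member, and 4 genes with a missing value were left out. A model of 9 group means, without covariates, was fitted with limma 3.58.1 in R 4.3.3 (21.02 degrees of freedom with the prior). It was also run on simulated data with independent arrays. Same-numbered bead arrays deviated together in part, so the simulation does not give error rates for these data. The bead mean weights the 5 days equally. Pairs of genes were tested by exact permutation (Python 3.11.15), and adjustment is by Benjamini-Hochberg.

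The members and lists were chosen with earlier results of these data known. For the pairs, HAP4 and each role's widest and narrowest member, values are given on every array outside the beads. In beads the lowest, median and highest are given. At most 2 genes per comparison are named from other lists. LSC1, LSC2 and HAP1 were added after their values were seen. Same-numbered arrays deviated together for day 5 against day 3 (correlations over genes 0.864, 0.548, 0.854 and 0.793) and not throughout in the other day pairs, so no block was used. Over the 57 members alone all same-number correlations among days 1, 3 and 5 were positive, between 0.215 and 0.958. Alternatives were repeated quantile normalization, centring of arrays, averaged probe sets, no fold minimum, another prior, array weights, only the groups compared, the replicate block, other bead means, single replicate numbers and leaving out each array. The replicate-number test and its settings were added after seeing the data.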

Additional observations from a re-analysis of the deposited data

Results flagged for a closer look

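Within the 171 sets of 4 arrays that the 57 genes give at days 1, 3 and 5, Dixon's criterion set 1 array apart from the other 3 in 5 sets, and chance alone does so in about 1 in 20 sets. On day 3 replicate 1 the log2 ratio was 1.67 for NDI1, 1.05 for QCR6, 0.82 for COX7 and 0.75 for CIT1, each far above the rest of its day. On day 1 replicate 3 QCR6 was at -0.90, far below the rest.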

How the results depend on the processing

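Repeated quantile normalization gives all arrays the same distribution. It left 2 calls in beads against log phase, 5 against stationary phase and 1 against the chemostat. In stationary phase against log phase it left 6, in the chemostat against log phase 1, and in stationary phase against the chemostat 1. Day 0 against log phase kept 5, day 1 against day 0 kept 4 and the bead days kept 2. Of all 5445 genes it called 516, 562, 557, 623, 10, 400, 657, 429 and 346, in the same order. Array weights gave 7 calls in beads against the chemostat, 5 in the chemostat against log phase and 24 in stationary phase against the chemostat. They gave 23 in day 0 against log phase, 8 in day 17 against day 1 and 20 among bead days. Of all genes they called 1167, 360, 2210, 2207, 759 and 2247, in the same order. Fitting only the groups compared gave 5, 24 and 23 in the same 3 comparisons of free cells and day 0, 7 in day 1 against day 0 and 2 among bead days. Over all genes these fits called 179, 2206, 2186, 454 and 695, in the same order. The replicate block gave 9 among bead days, where 1324 of all genes were called. Its other totals were within 1.5 times, but beads against log phase gave 9 higher and 1 lower, with 7 of 9 calls shared, and day 1 against day 0 shared 9 of 14. Without a fold minimum beads against the chemostat gave 10, where 1845 of all genes were called. With the mean of days 10 and 17 for the beads, 15 were called against log phase and 9 against the chemostat. Of all genes 2043 and 1536 were. Bead arrays of numbers 1, 2, 3 and 4 gave member medians of -0.67, -0.95, -1.33 and -1.24 against stationary phase. Against the chemostat these were -0.02, -0.34, -0.63 and -0.64. With number 1 only, RGI2 in beads against log phase turned to 1.90, where all arrays gave -0.04 and no call. The replicate-number test gave 41 without day 1 and 0 without day 3 or day 5. The causes were not tested.

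With each array left out in turn, the count ran between 5 and 10 in beads against log phase, 12 and 33 against stationary phase, 1 and 8 against the chemostat, 15 and 32 in stationary phase against log phase, 2 and 3 in the chemostat against log phase, 5 and 16 in stationary phase against the chemostat, 6 and 16 in day 0 against log phase, 6 and 18 in day 1 against day 0, 0 and 1 in day 17 against day 1, 1 and 8 among bead days, 1 and 28 for the replicate number, and 0 and 8 for the pairs. Of the 28 calls in beads against stationary phase 10 were kept without any 1 array, and 5 with repeated quantile normalization. Among them CIT3, SHH4, NDE2, FUM1 and HAP1 were kept by both. Filtering by brightness was not run, because ratios keep none.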
